A study of Homo sapiens with 9 samples.

Results

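The enzymes that carry isocitrate, glutamate and 2-oxoglutarate through the tricarboxylic acid (TCA) cycle were followed in 786-O cells, an established human clear cell renal cell carcinoma (ccRCC) line that lacks functional VHL and so keeps HIF2α at normal oxygen. The genes are OGDH, OGDHL, DLST, IDH1, IDH2, IDH3A, GLUD1, SUCLG1 and SUCLG2. They were taken by name, 9 of the 38021 genes in the count table, and all 9 were present. The choice was made with results of these libraries known, the higher OGDHL reads in the shARNT cells among them, so the fold changes of the 9 genes are a description and no p-value is attached to them. All libraries came from cells infected with a lentiviral shRNA and selected with puromycin, controls included. There were 3 groups of 3 libraries labelled as biological replicates: shControl (a control hairpin), shARNT (against ARNT, the usual partner of the HIF alpha subunits) and shBMAL1 (against the clock factor BMAL1, named ARNTL in the table). Each target was depleted with 1 hairpin, so effects of the hairpin and of losing its target cannot be told apart.

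The TCA cycle oxidises acetyl units in the mitochondrion, and glutamine feeds it by way of glutamate, which glutamate dehydrogenase (GLUD1) turns into 2-oxoglutarate. The 2-oxoglutarate dehydrogenase complex then turns 2-oxoglutarate into succinyl-CoA with an E1 subunit (OGDH, or its paralogue OGDHL), an E2 subunit (DLST) and an E3 subunit (DLD) that it shares with other complexes, and succinyl-CoA synthetase (SUCLG1 with SUCLG2 or SUCLA2) makes succinate. The NADP-linked IDH1 (cytosol) and IDH2 (mitochondrion) interconvert isocitrate and 2-oxoglutarate, and the NAD-linked IDH3 of the mitochondrion oxidises isocitrate to 2-oxoglutarate, which is also a substrate of the oxygen-sensing dioxygenases that control HIF.

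Library totals lay between 33793045 and 35444735 reads. The hairpin against ARNT left 1225 ± 23.2 normalised counts of its target (SD, n = 3) where controls had 2352 ± 184, which is −0.94 ± 0.074 on the log2 scale (SE; DESeq2 adjusted p = 8.73e-35). The hairpin against BMAL1 left 326 ± 29.2 of ARNTL where controls had 761 ± 31.9, or −1.23 ± 0.11 (DESeq2 adjusted p = 2.54e-25). Each knockdown also lowered the RNA of the other target somewhat. ARNT had a log2 fold change of −0.23 ± 0.080 in shBMAL1 (DESeq2 adjusted p = 0.0190). ARNTL had −0.26 ± 0.098 in shARNT (DESeq2 adjusted p = 0.0296). The first of these calls was lost without shBMAL1 replicate 2 (−0.19) or shControl replicate 2 (−0.16), and the second without shARNT replicate 3 (−0.19) or shControl replicate 2 (−0.23). By immunoblot the study instead saw slightly more ARNT protein after BMAL1 depletion, and slightly more BMAL1 protein after ARNT depletion. The share of reads from mitochondrial genome genes was lower in every control library than in any knockdown library (6.21 ± 0.854% for shControl, 8.06 ± 0.604% for shARNT, 9.33 ± 0.538% for shBMAL1, the knockdowns overlapping), and the part of this shift in the values below was not tested. All 10 renal epithelial and ccRCC markers reached 10 normalised counts in some group. Of the other markers, all 3 endothelial genes stayed below 10, 1 of 4 leukocyte genes (CD68, summed list level 5325 to 7882) and 3 of 4 fibroblast and muscle genes (380 to 694, highest in shBMAL1) reached it, and PTPRC and DCN were near 0.

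RefSeq promoter windows (GRCh38.p14, 250 bases before to 50 after a start) were matched for 8 of the 9 genes, and OGDH had no match. The windows were searched on both strands for the E-box CACGTG, which BMAL1 and its partner CLOCK recognise, and for ACGTG and GCGTG, the core of hypoxia response elements. CACGTG contains ACGTG, so a match to the first is also a match to the second. OGDHL was the only one of the 8 with CACGTG, a motif held by 7.26% of all 35116 windows. ACGTG stood in OGDHL, within that E-box, and in IDH1 (21.4% of all windows), and GCGTG in GLUD1, IDH1, IDH2, IDH3A and SUCLG1 (36.5% of all windows). These shares are per window, not per gene, and the 8 genes had 10 windows. The stretches of the 2 genes with ACGTG are shown with the motif in capitals, because OGDHL is the one of the 9 whose level differed most between the groups and IDH1 is the other gene with that core.
OGDHL: gggcggctgcgtCACGTGacccaggtaatt
IDH1: aggaggaagaaaACGTGcagcagctgggg
The OGDHL stretch is chr10:49762327-49762356 on the minus strand, and its E-box begins 21 bases before one annotated start and 35 bases after another. The IDH1 stretch is chr2:208254553-208254581 on the minus strand, with the motif 111 bases before a start. These are letter matches. The study mapped BMAL1 and HIF2α on the chromatin of 786-O cells, but those data were not examined here.

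The E1 subunit of the 2-oxoglutarate dehydrogenase complex was where the groups stood furthest apart. OGDHL was about 4 times higher in both knockdowns than in shControl, and OGDH was at 0.489 of its shControl level in shBMAL1 and at 0.900 of it in shARNT. Because the RNA is from whole cultures, fewer cells expressing a gene and less RNA per cell cannot be told apart.

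OGDHL (GRCh37 chromosome 10, 50942687 to 50970425, minus strand), a paralogue of OGDH best known from brain, had 48.3, 29.99 and 49.5 normalised counts in the shControl libraries. The shARNT libraries had 190.0, 198 and 175, and the shBMAL1 libraries 143, 164 and 171. All 6 knockdown libraries lay above all 3 controls, of which replicate 2 was the lowest. The log2 fold change was 2.14 ± 0.23 (SE), or 4.42-fold, in shARNT and 1.90 ± 0.25, or 3.74-fold, in shBMAL1. Over the left-out libraries and other settings tried it stayed between 1.94 and 2.26 in shARNT and between 1.70 and 2.02 in shBMAL1. The direct difference between the knockdowns was −0.24 ± 0.17 and was not called, although the shBMAL1 libraries all lay just under the shARNT libraries.

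OGDH (chromosome 7, 44646171 to 44748665, plus strand), the common E1 subunit, had 4683, 5441 and 4914 normalised counts in shControl. It had 4571, 4511 and 4425 in shARNT, and 2614, 2281 and 2474 in shBMAL1. The shBMAL1 libraries were thus far below the other 6, and the shARNT libraries were just below the controls. The log2 fold change was −1.03 ± 0.080 in shBMAL1 (0.489-fold) and −0.15 ± 0.062 in shARNT (0.900-fold). The direct comparison of shBMAL1 with shARNT gave −0.88 ± 0.071. The shBMAL1 value stayed between −1.08 and −0.97 over the settings tried, whereas the small shARNT difference was no longer called without shARNT replicate 2 (−0.15), shARNT replicate 3 (−0.14) or shControl replicate 2 (−0.09).

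**Figure D1:**
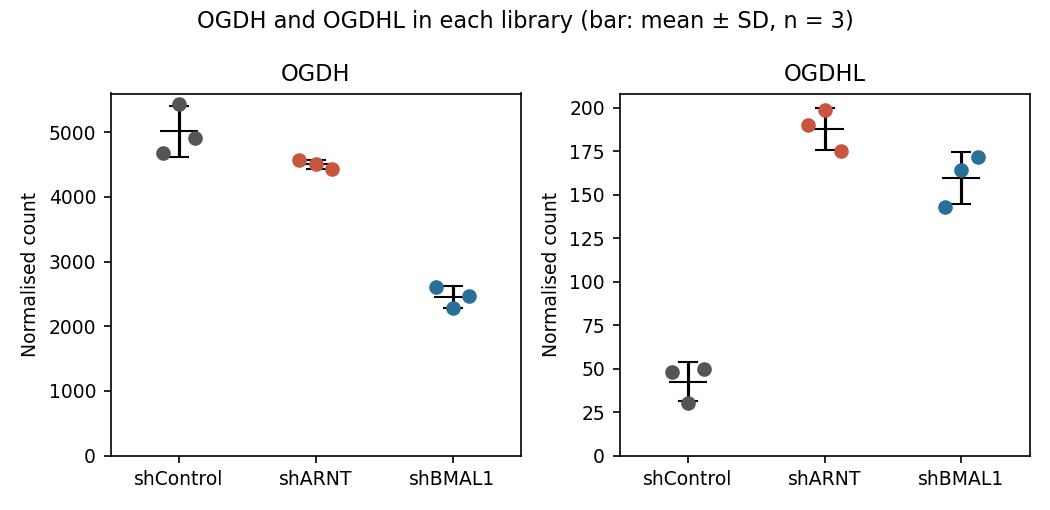
Normalised counts (y axis, from 0) of OGDH and OGDHL in each library of the 3 groups; points are libraries and bars the mean ± SD (n = 3). OGDH sits between 2281 and 2614 in shBMAL1 and between 4425 and 5441 elsewhere, while OGDHL sits between 29.99 and 49.5 in shControl and between 143 and 198 in the knockdowns.

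OGDHL remained a small part of the E1 reads in every group. Its share of the OGDH plus OGDHL reads was 0.856 ± 0.267% with shControl, 4.00 ± 0.205% with shARNT and 6.13 ± 0.825% with shBMAL1. Per kb of transcript the shares were 0.967 ± 0.301%, 4.50 ± 0.230% and 6.88 ± 0.919%. The share was higher in shBMAL1 than in shARNT with less OGDHL, since OGDH was lower there.

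DLST (chromosome 14, 75348594 to 75370446, plus strand), the E2 subunit with the lipoyl arm, was at 4254 ± 178 normalised counts for shControl, 3891 ± 187 for shARNT and 4205 ± 146 for shBMAL1. The shARNT libraries (3707, 4081 and 3886) were all below the lowest control (4109), by a log2 fold change of −0.13 ± 0.059, but the call was lost when any library other than shARNT replicate 2 was left out (−0.15 to −0.09). In shBMAL1 the value was −0.02 ± 0.067, with overlapping groups. DLD, the shared E3 subunit, rose in shARNT from 5491 ± 167 to 6776 ± 539 (log2 fold change 0.31 ± 0.06, DESeq2 adjusted p = 1.1e-05) and was at 5654 ± 192 in shBMAL1, which was not called. MRPS36, a small protein that ties the complex's core to E3, was at 168 ± 22.9, 149 ± 30.9 and 138 ± 33.1 in shControl, shARNT and shBMAL1 and was not called in any comparison.

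On a scale of normalised counts per kb of transcript, OGDH and OGDHL together were at 1207 ± 89.9 in shControl, 1124 ± 19.9 in shARNT and 629 ± 37.5 in shBMAL1. DLST was at 1512 ± 63.1, 1383 ± 66.4 and 1495 ± 51.8 on that scale. The ratio of E1 to DLST was therefore 0.797 ± 0.0260 in shControl, 0.814 ± 0.0460 in shARNT and 0.420 ± 0.0128 in shBMAL1. The added OGDHL made up little of the OGDH difference in shBMAL1, where the ratio with OGDH alone was 0.392 ± 0.0143.

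**Figure D2:**
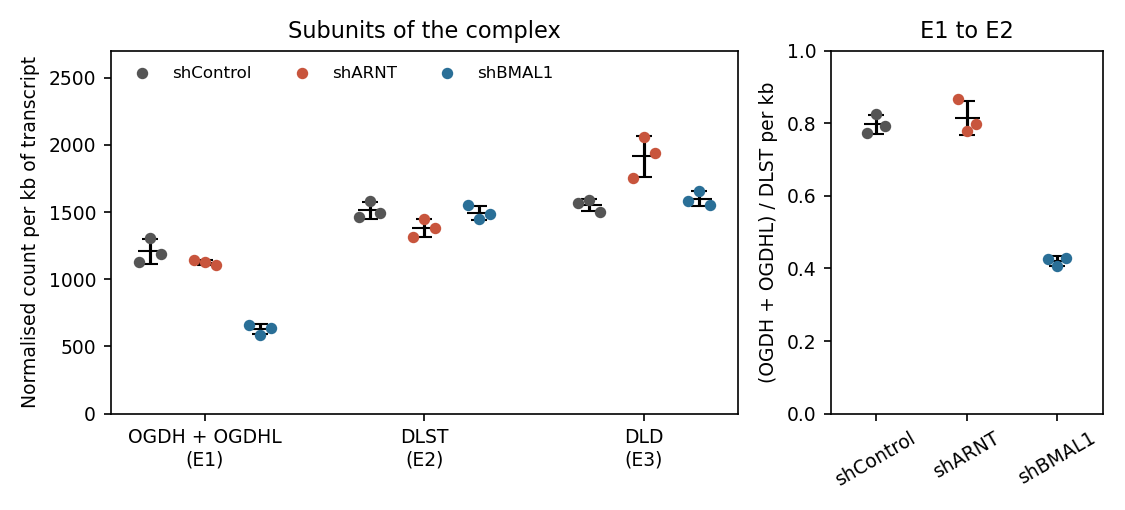
Normalised count per kb of transcript (left, y axis from 0) for the E1 pair, DLST and DLD, and the ratio of E1 to DLST (right), in each library; points are libraries and bars the mean ± SD (n = 3). E1 is lower in shBMAL1 (629 against 1207 in shControl) while DLST is near 1500, so the ratio is 0.420 against 0.797.

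The isocitrate dehydrogenases differed little. IDH2 (chromosome 15, 90626277 to 90645709, minus strand), the mitochondrial NADP-linked enzyme, had 8602 ± 102 normalised counts in the controls, 8735 ± 69.4 with shARNT and 8879 ± 503 with shBMAL1. Its log2 fold changes were 0.03 ± 0.046 and 0.04 ± 0.064. IDH1 (chromosome 2, 209100953 to 209130798, minus strand), its cytosolic counterpart, was at 5260, 5446 and 4927 in shControl, 5501, 5572 and 5736 in shARNT, and 5522, 5523 and 5469 in shBMAL1. All knockdown libraries were above the controls, but only by log2 fold changes of 0.11 ± 0.055 and 0.08 ± 0.065, and neither was called; without shControl replicate 2 the shARNT value was 0.14 and was called.

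IDH3A (chromosome 15, 78423840 to 78464287, plus strand), the catalytic subunit of the NAD-linked enzyme, was at 1129 ± 25.5 in shControl, 1078 ± 121 in shARNT and 1030 ± 78.9 in shBMAL1. Its log2 fold changes, −0.06 ± 0.090 and −0.13 ± 0.090, were not called. The shBMAL1 libraries (1099, 944 and 1048) all lay below the lowest control (1114), and in shARNT replicate 1 (940) was the low library. Against shControl, the partner subunit IDH3B was called only in shARNT and the partner subunit IDH3G only in shBMAL1. IDH3B rose in shARNT from 2605 ± 153 to 3225 ± 75.5 (log2 fold change 0.31 ± 0.06, DESeq2 adjusted p = 7.93e-06), and IDH3G fell in shBMAL1 from 3520 ± 169 to 2724 ± 240 (log2 fold change −0.37 ± 0.08, DESeq2 adjusted p = 2.4e-05). Set directly against shARNT, both were lower in the shBMAL1 cells (DESeq2 adjusted p = 0.00489 and 6.05e-06). IDH3A shares 2608 exon bases with ACSBG1 on the other strand, and IDH1 shares 94 with IDH1-AS1. GLUD1 shares 464 with SHLD2 and SUCLG1 shares 269 with a non-coding gene, also on the other strand. The strand setting of the counting is not given in the sources used here.

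GLUD1 (chromosome 10, 88809959 to 88854600, minus strand) was at 2769, 2948 and 2770 normalised counts in shControl, 2404, 2293 and 2556 in shARNT, and 2485, 2535 and 2914 in shBMAL1. The shARNT libraries lay below the controls, by a log2 fold change of −0.22 ± 0.064, and stayed called under every setting tried (−0.26 to −0.19). In shBMAL1 the value was −0.10 ± 0.080 and was not called, except without replicate 3 (−0.17). GLUD2, an intronless copy of GLUD1, was given 61.2 ± 0.758% of the reads of the pair in shControl, so the split between these near-identical genes is uncertain. GLUD2 also fell in shARNT, from 4457 ± 212 to 3838 ± 109 (log2 fold change −0.21 ± 0.06, DESeq2 adjusted p = 0.00143), and the sum of both copies was 7286 ± 297 in shControl, 6256 ± 103 in shARNT and 6983 ± 414 in shBMAL1. The sum in shARNT did not overlap the controls (highest 6345 against lowest 6997).

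SUCLG1 (chromosome 2, 84650652 to 84687169, minus strand), the alpha subunit of succinyl-CoA synthetase, was at 2993 ± 234 in shControl, 2983 ± 197 in shARNT and 3372 ± 335 in shBMAL1. Its log2 fold change in shBMAL1, 0.17 ± 0.087, was not called, but it was called at 0.17 with edgeR, at 0.25 without shBMAL1 replicate 3 and at 0.23 without shControl replicate 2. Against shARNT the value was 0.18 ± 0.084, also not called, and 0.25 without shBMAL1 replicate 3 and 0.23 without shARNT replicate 2, when it was. SUCLG2 (chromosome 3, 67410884 to 67705036, minus strand), the GTP-linked beta subunit, was at 2571 ± 71.7, 2475 ± 117 and 2800 ± 239. It was called higher in shBMAL1 than in shARNT (0.18 ± 0.081), a call lost without shARNT replicate 2 (0.17) or 3 (0.14) or without shBMAL1 replicate 2 (0.13) or 3 (0.15). Against shControl its log2 fold change in shBMAL1 was 0.12 ± 0.079, called only without shBMAL1 replicate 1 (0.19). SUCLA2, the ATP-linked beta subunit, rose in shARNT from 1144 ± 70.5 to 1372 ± 65.2 (log2 fold change 0.27 ± 0.08, DESeq2 adjusted p = 0.00425) and was at 1178 ± 57.1 in shBMAL1. Per kb of transcript SUCLG2 held 66.9 ± 1.98% of the beta subunit reads with shControl, 61.8 ± 2.21% with shARNT and 68.1 ± 0.912% with shBMAL1.

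**Figure D3:**
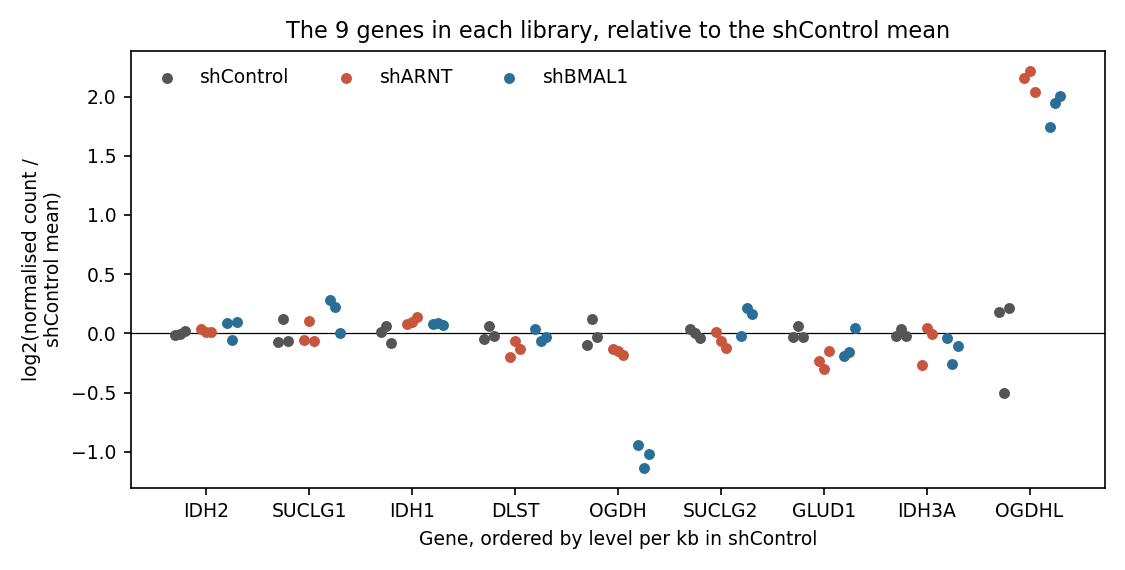
Log2 of each library's normalised count over the shControl mean (y axis) for the 9 genes, ordered by level per kb in shControl; each point is 1 library. OGDHL stands near 2 in both knockdowns and OGDH near −1 in shBMAL1, and the other genes stay close to 0.

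All 9 genes passed the filter on low counts in each comparison. In shARNT against shControl, 3 (OGDH, DLST and GLUD1) were called lower, where 18.7% of the 15363 genes tested were, and 1 (OGDHL) was called higher, where 16.2% were. In shBMAL1 against shControl, 1 (OGDH) was called lower and 1 (OGDHL) higher, against 19% and 17.1% of 19359 genes. In shBMAL1 against shARNT, 1 (OGDH) was called lower and 1 (SUCLG2) higher, against 18.2% and 17.4% of 18003 genes. The libraries of the 2 groups did not overlap for 5, 4 and 2 of the 9 genes in these comparisons, against 43.6%, 44.7% and 44.3% of all genes tested. The genes were chosen on these contrasts, so nothing is read from the counts. The median log2 fold changes of the 9 genes were −0.05, 0.04 and 0.02, beside 0.0030, 0.018 and 0.0092 over all genes tested. Both knockdown comparisons use the same shControl libraries.

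Per kb of transcript in shControl, IDH2 was the most abundant of the 9 at 3236 ± 38.3, followed by SUCLG1 (2356 ± 184) and IDH1 (2248 ± 113), whose libraries overlapped. DLST (1512 ± 63.1) came next. OGDH (1195 ± 92.7) and SUCLG2 (1094 ± 30.5) overlapped. GLUD1 (857 ± 31.2, without the reads given to GLUD2), IDH3A (277 ± 6.24) and OGDHL (11.5 ± 2.95) followed without overlap. In shBMAL1 OGDH dropped to 586 ± 39.9, below every GLUD1 library (lowest 753), while OGDHL, at 43.0 ± 3.99, was still the lowest of the 9. The order depends on the length used. Per kb of coding sequence IDH1 (4196), DLST (3130) and SUCLG1 (2883) followed IDH2 (6344) in shControl, and OGDH (1633) stood just below GLUD1 (1690). The place of GLUD1 also rests on the uncertain split of reads with GLUD2, which was given 61.2 ± 0.758% of the pair in shControl. With the reads of both copies GLUD1 would stand higher, so OGDH falling past it in shBMAL1 depends on that split.

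The 5 genes most like OGDHL over the 9 libraries, by the root-mean-square difference in log2(normalised count + 1) less the shControl mean among 12937 genes, were KCCAT211 (0.289), NEBL (0.342), NRCAM (0.405), ACP5 (0.424) and KCP (0.483). NEBL, an actin-binding protein, had 77.1 ± 13.6 normalised counts with shControl, 279 ± 17.9 with shARNT and 371 ± 48.6 with shBMAL1. KCCAT211, a non-coding transcript, was at 42.2 ± 6.26, 218 ± 22.0 and 129 ± 9.42. Likeness here is a description over 9 libraries that share 1 control group.

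The other genes of the pathway were read in 5 lists of 74 genes in all, written from textbook membership with earlier results of these data known. In shARNT 19 of the 72 tested genes were called lower and 14 higher, beside 18.7% and 16.2% of all genes tested. The second count was 6 without shControl replicate 3, 5 without shARNT replicate 2 and 9 with the replicate number as a block. In shBMAL1 23 of 73 were lower and 18 higher, beside 19% and 17.1% of all genes, and the second count was 11 without shControl replicate 3. Across both comparisons 13 genes were lower in both, 3 higher in both and 2 called in opposite directions. The shares of all genes with these patterns were not computed, and both comparisons use the same shControl libraries. Nothing is therefore read from these pattern counts. The direct comparison of shBMAL1 with shARNT called 20 of 73 lower and 22 higher, beside 18.2% and 17.4% of all genes. The lists were not tested as groups, and their counts and medians below are read only beside these shares and the medians over all genes given above.

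GLS2, which releases ammonia from glutamine, had few reads, with 27.5 ± 4.38 normalised counts under shControl, 25.9 ± 6.10 under shARNT and 45.3 ± 8.69 under shBMAL1. GLUL, which makes glutamine, also had few, at 10.7 ± 2.47 in shControl and 16.1 ± 5.45 in shARNT, and rose in shBMAL1 to 34.4 ± 3.20 (log2 fold change 1.68 ± 0.48, DESeq2 adjusted p = 0.00229).

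Of the glutamine and glutamate enzymes, 8 of 21 tested were called lower and 2 higher in shARNT, and 9 of 22 lower and 5 higher in shBMAL1, with medians of −0.08 and −0.11. The most lowered in shARNT was ASNS, asparagine synthetase, from 6733 to 2985 (log2 fold change −1.17 ± 0.08, DESeq2 adjusted p = 2.42e-49), which was not called in shBMAL1 (5977) and was higher there than in shARNT (1.00 ± 0.10, DESeq2 adjusted p = 1.37e-20). In shBMAL1 the most lowered was CAD, which starts pyrimidine synthesis (−0.55 ± 0.06, DESeq2 adjusted p = 7.47e-16), and the most raised with a mean of at least 50 was ALDH5A1, succinate semialdehyde dehydrogenase, from 95.8 to 159 (0.73 ± 0.24, DESeq2 adjusted p = 0.00919; not called without shControl replicate 3, 0.51).

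Among the other TCA cycle genes, 2 of 19 were called lower and 5 higher in shARNT, and 5 lower and 4 higher in shBMAL1, with medians of 0.06 and 0.04. SDHA, the flavoprotein subunit of succinate dehydrogenase, was the most lowered in both, from 22746 to 19670 in shARNT (−0.21 ± 0.05, DESeq2 adjusted p = 0.000842) and to 17600 in shBMAL1 (−0.37 ± 0.08, DESeq2 adjusted p = 5.57e-05), where IDH3G was lower by the same amount to 2 decimals. SDHAF2, an assembly factor of that enzyme, was the most raised in shARNT (0.35 ± 0.09, DESeq2 adjusted p = 0.00122). In the direct comparison 7 of these 19 were lower and 3 higher in shBMAL1.

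Of the 11 other 2-oxo acid dehydrogenase and lipoylation genes, 1 was lower and 4 higher in shARNT, and 1 lower and 6 higher in shBMAL1, with medians of 0.08 and 0.20. DHTKD1, the E1 subunit of the related 2-oxoadipate complex, was at 1469 ± 122 with shControl, 1656 ± 55.7 with shARNT and 1468 ± 16.5 with shBMAL1, and was called in shARNT (0.18 ± 0.08, DESeq2 adjusted p = 0.0708), a call that 7 of 12 alternatives lost. BCKDHB, of the branched-chain complex, fell in shARNT (−0.22 ± 0.07, DESeq2 adjusted p = 0.0158) and rose in shBMAL1 (0.24 ± 0.08, DESeq2 adjusted p = 0.00596). DLAT, the E2 subunit of pyruvate dehydrogenase, fell in shBMAL1 from 3456 to 2637 (−0.39 ± 0.07, DESeq2 adjusted p = 1.22e-06). The most raised were genes for lipoate handling, LIAS in shARNT (0.27 ± 0.12, DESeq2 adjusted p = 0.0865) and LIPT1 in shBMAL1 (0.44 ± 0.21, DESeq2 adjusted p = 0.0996), and each of these calls was lost in 8 of 12 alternatives. LIAS was also called higher in shBMAL1 (0.36 ± 0.13, DESeq2 adjusted p = 0.0281), except without shBMAL1 replicate 2 (0.27) or shControl replicate 3 (0.25).

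Of the 12 carriers, 4 were called lower and 1 higher in shARNT, and 5 lower and 0 higher in shBMAL1, with medians of 0.01 and −0.14. SLC7A5, an amino acid exchanger of the plasma membrane, fell in shARNT from 33615 to 19643 (−0.77 ± 0.06, DESeq2 adjusted p = 3.42e-39) and in shBMAL1 to 24798 (−0.44 ± 0.08, DESeq2 adjusted p = 1.25e-06). SLC25A22, a mitochondrial glutamate carrier, fell in shBMAL1 from 547 to 377 (−0.54 ± 0.12, DESeq2 adjusted p = 5.81e-05). SLC25A13, an aspartate-glutamate carrier, was the 1 called higher in shARNT (0.14 ± 0.05, DESeq2 adjusted p = 0.0379), and 5 of 12 alternatives lost it. Of the NADP-linked, anaplerotic and 2-hydroxyglutarate enzymes, 4 of 9 tested were lower and 2 higher in shARNT, and 3 lower and 3 higher in shBMAL1, with medians of −0.14 and −0.09. PCK2, mitochondrial phosphoenolpyruvate carboxykinase, was the most lowered in both, from 5266 to 2293 in shARNT (−1.20 ± 0.06, DESeq2 adjusted p = 1.29e-81) and to 4165 in shBMAL1 (−0.34 ± 0.06, DESeq2 adjusted p = 1.61e-06). D2HGDH, a dehydrogenase that removes 2-hydroxyglutarate, was the most raised in shARNT (0.26 ± 0.10, DESeq2 adjusted p = 0.0260), a call that 3 of 12 alternatives lost, and was also higher in shBMAL1 (0.37 ± 0.10, DESeq2 adjusted p = 0.00175).

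**Figure D4:**
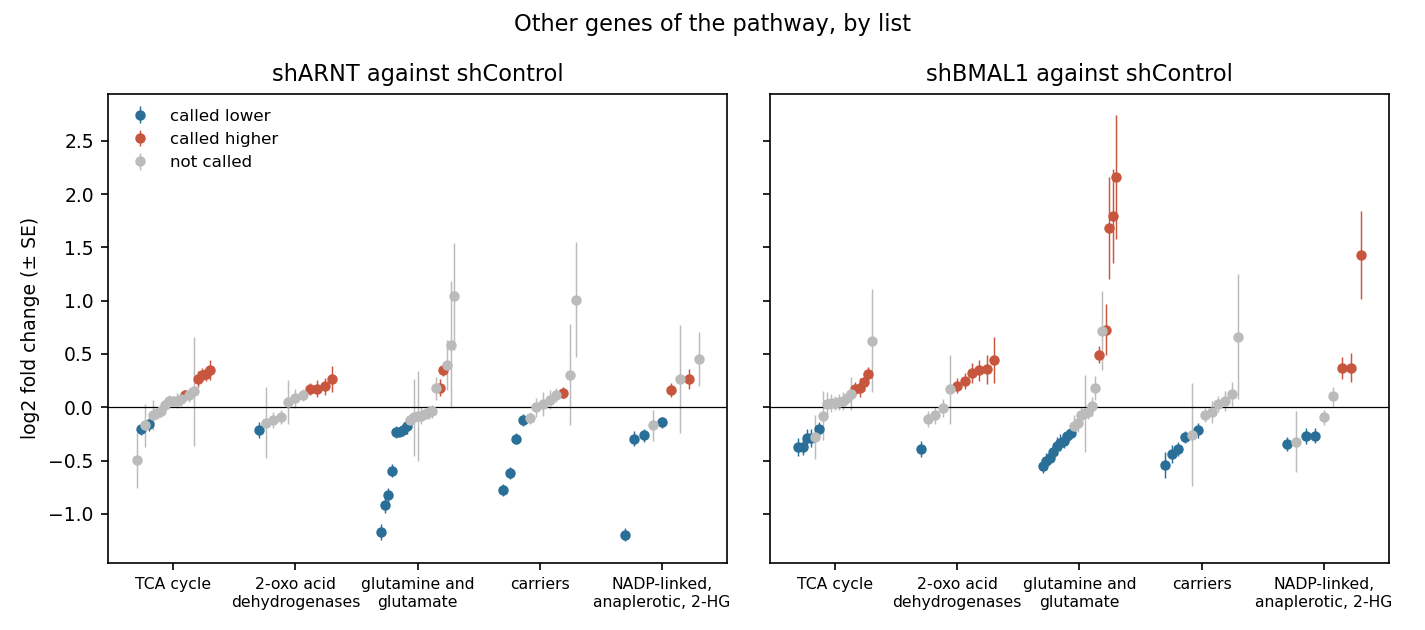
Log2 fold change with its SE (y axis) of each tested gene in the 5 pathway lists, for shARNT (left) and shBMAL1 (right) against shControl; blue points were called lower, red higher and grey not called. The lowest points in shARNT are PCK2 (−1.20) and ASNS (−1.17), and no carrier is called higher in shBMAL1.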

How the data were processed

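RNA from 9 libraries of 786-O cells was sequenced by the authors as stranded mRNA libraries. The deposited table holds estimated counts per gene, raw and not normalised, in which the value 0.009 stands for 0. The submitters' processing notes name STAR, DESeq2 and hg38, whereas the study's methods name another aligner and GRCh37, and the counts carry no coordinates. Gene positions and lengths (canonical transcript) here are from GENCODE on GRCh37, and promoters are from RefSeq on GRCh38.p14. Estimated counts were rounded, and 53 rows sharing a name with an earlier row were added to it, leaving 38021 genes. Each comparison was a Wald test in DESeq2 1.42.0 (R 4.3.3) on its 6 libraries, with median-of-ratios size factors, independent filtering and Benjamini-Hochberg adjustment over all genes, called at an adjusted p under 0.1 as in the study. Printed normalised counts use size factors over all 9 libraries. Alternatives were edgeR 4.0.16 (quasi-likelihood, TMM), TMM size factors, at least 10 counts in 3 libraries, an adjusted p under 0.05, 1 fit of all 9 libraries, a replicate block and each library left out. The fits were tested on simulated counts of genes averaging at least 50 reads in shControl. Genes as low as OGDHL, GLS2 and GLUL were there lay outside that range.

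The 9 genes, the lists and the tests were chosen with earlier results of these data known. Named besides the 9 genes and both targets were the partner subunits and paralogues of the 9 genes, GLS2 and GLUL, and in each list and knockdown the most lowered and most raised called gene averaging 50 or more normalised counts. A few genes that this rule names are not reported here. The labels and the study call the 3 libraries of a group biological replicates or distinct samples, but do not say whether each was a separate infection, so p-values measure the spread between these libraries.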

Additional observations from a re-analysis of the deposited data

How the results depend on the processing

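For the 9 genes, all 324 alternative fold changes moved by less than the spread between replicates, and no called value changed sign. Leaving out 1 of 3 libraries can hardly move a mean by more than that spread. The stricter adjusted p reuses the main fold changes, so little is read from this. Calls changed as given beside DLST, OGDH, GLUD1, IDH1, SUCLG1 and SUCLG2. The DLST call in shARNT was also lost at an adjusted p under 0.05, with the count filter, with 1 fit of all libraries and with the replicate block (9 of 12 alternatives), and SUCLG2 in shBMAL1 against shARNT at an adjusted p under 0.05 and with the block (6 of 12). SUCLG1 was called in shBMAL1, against either group, in 5 of 12.

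Of the alternatives for other named genes that were called, 608 kept the call and 64 lost it, none with a change of sign. Among those reported, the losses fell on DHTKD1 (without any library but shControl replicate 2, 0.14 to 0.20), LIAS (any but shControl replicate 1, 0.16 to 0.29), SLC25A13 (without shARNT replicate 1 or 2 or shControl replicate 1 or 3, 0.11 to 0.14), D2HGDH (without shARNT replicate 2, 0.23, or shControl replicate 3, 0.23, and with the replicate block, 0.27), BCKDHB (without shARNT replicate 1, −0.18) and ARNTL in shARNT, on LIPT1 (without any library but shBMAL1 replicate 2, 0.24 to 0.51), LIAS, ALDH5A1 and ARNT in shBMAL1, and on DHTKD1, SUCLA2, GLUD2, GLS2 and GLUL in the direct comparison.

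The number of pathway genes called higher in shARNT was 14, and 9 both at an adjusted p under 0.05 and with the replicate block. With 1 library left out it was 5 to 12, and that in shBMAL1, 18, was 11 to 17. The causes were not tested. The other 4 counts stayed within 1.5 times, at 16 to 19 and 22 to 25 lower in shARNT and shBMAL1, and 17 to 22 lower and 16 to 19 higher in the direct comparison. Same-numbered libraries did not deviate together (correlations −0.154 to 0.105 over 12937 genes), so the numbers are not taken to pair the samples. The OGDHL share of E1 reads in shARNT was 4.50% per kb in place of 4.00%, as the transcripts differ in length. Counts were low, and so less precise, for OGDHL in shControl (30 to 49 reads a library), GLS2 (19 to 52) and GLUL (8 to 38).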

Other observations

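Some genes outside the rule for named genes, chosen after their values were seen, also differed. The 3 genes of the branched-chain 2-oxo acid dehydrogenase core were each higher in shBMAL1 than in shControl: BCKDHA from 2121 to 2654 normalised counts (log2 fold change 0.32 ± 0.10, DESeq2 adjusted p = 0.00412), BCKDHB as given above, and DBT from 642 to 817 (0.35 ± 0.10, DESeq2 adjusted p = 0.00331). All 3 were also higher than in shARNT in the direct comparison. GOT1, the cytosolic aspartate aminotransferase, rose in shBMAL1 from 3534 to 4985 (0.49 ± 0.08, DESeq2 adjusted p = 1.15e-09), while GOT2, its mitochondrial counterpart, fell from 5737 to 4757 (−0.27 ± 0.06, DESeq2 adjusted p = 0.000102). GOT2 also fell in shARNT, to 4881 (−0.23 ± 0.05, DESeq2 adjusted p = 0.000202), and the direct comparison of the knockdowns was not called (−0.04 ± 0.06, DESeq2 adjusted p = 0.707). In shARNT PSAT1, which makes phosphoserine and 2-oxoglutarate, fell from 6154 to 3252 (−0.92 ± 0.07, DESeq2 adjusted p = 1.19e-36), and GPT2, mitochondrial alanine aminotransferase, fell from 2849 to 1608 (−0.82 ± 0.07, DESeq2 adjusted p = 2.29e-34). GPT2 was also lower in shBMAL1, at 2009 (−0.51 ± 0.08, DESeq2 adjusted p = 1.83e-09). SLC1A5, a glutamine carrier of the plasma membrane, fell in shARNT from 14178 to 9212 (−0.62 ± 0.05, DESeq2 adjusted p = 5.12e-28) and less in shBMAL1, to 11699 (direct difference 0.34 ± 0.07, DESeq2 adjusted p = 2.37e-06).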
